A study of Mus musculus with 12 samples.

Results

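The cadherins and neuronal adhesion molecules described here are 8 genes, taken by symbol: Cdh4, Cdh23, Cdh24, Dsg1c, Pcdhga9, Ncam2, Igsf9b and Amigo3. They are 8 of the 1017 genes that were listed in at least 1 of the deposited tables. All 8 were listed in hippocampus and 1, Cdh24, was also listed in cortex. The study sequenced poly-A RNA from the hippocampus and the cortex of adult C57BL/6 mice that were either wild type (WT) or BK KO (kcnma1-/-), with 3 mice per genotype and 12 libraries in all. BK KO mice lack Kcnma1, the pore-forming subunit of a potassium channel (BK) opened by calcium and voltage, in every cell of the body. Per the paper, the allele is a small frameshift deletion made with CRISPR/Cas9, and heterozygous breeding pairs gave littermates of each genotype. The methods name adult male BK KO mice for the experiments that followed, and whether this covers the sequenced mice is not stated. Each table lists only genes that the authors had called between the genotypes on these same libraries, 652 genes in hippocampus and 561 in cortex, so the levels of a member in cortex other than Cdh24 were not analysed here.

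Cell adhesion molecules hold neurons to their neighbours and help to choose which contacts become synapses. Cadherins bind the same cadherin on the next cell through extracellular repeats that need calcium, and protocadherins of the clustered families give neurons a surface identity that lets branches of the same cell avoid each other. Adhesion molecules of the immunoglobulin and leucine-rich repeat families work without calcium and act in axon growth and at excitatory or inhibitory synapses.

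The values are FPKM, fragment numbers corrected for the length of the transcript and the size of the library, so levels can be set side by side between genes. Kcnma1, the targeted gene, had hippocampal FPKM of 11.3, 10.6 and 9.67 in WT mice and 2.54, 2.82 and 2.81 in BK KO mice. In cortex it had 11.98, 9.82 and 11.8 FPKM in WT mice and 3.09, 2.97 and 2.76 FPKM in BK KO mice. All BK KO libraries lay below all WT libraries in both tissues, as the genotype labels state. The deletion removes few bases, so these values give the level of the transcript and not the deletion itself.

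The tissue labels could be checked only in part. Over the 196 genes listed in both tables, the WT hippocampus and WT cortex libraries differed with an adjusted p under 0.05 in 0 genes and with an unadjusted p under 0.05 in 3 genes (limma), and by more than 1 on the log2 scale in 0 genes. Correlations of log2(FPKM + 1) across these genes, which are not independent replicates, ran from 0.971 to 0.992 between libraries of a genotype. For 11 of 12 libraries the most similar library of the same genotype was one labelled with the other tissue. Each library had more candidates of its genotype in the other tissue than in its own. The 196 genes were selected for a genotype difference in both tissues and not for a regional one. Likeness over them therefore cannot decide whether a tissue label is right. WT hippocampus library 1 and WT cortex library 3 were the most alike, with r = 0.992. With the mean of each group taken away, BK KO libraries of the same number correlated between the tissues at 0.51, 0.66 and 0.55, and those of unlike number at -0.45 to -0.18. In WT mice the largest of these values were 0.49 for library 2 with 2 and 0.42 for hippocampus 1 with cortex 3, while 1 with 1 and 3 with 3 gave -0.000417 and 0.02. Such deviations sum to 0 within a group, so the values depend on each other. The excitatory marker Wfs1, which is dense in the hippocampal CA1 field, had 52.6, 33.9 and 29.8 FPKM in WT hippocampus and 34.7, 38.9 and 37.6 FPKM in WT cortex, and these values overlap. The hippocampal markers Prox1 and Rspo3 were not listed, which does not tell whether they were expressed. Whether the libraries come from separate regions was not tested further, and hippocampus and cortex of the same mouse are not independent samples.

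The threshold used here asked for an unadjusted limma p-value under 0.05 on log2(FPKM + 1) together with a log2 fold change larger than 0.58 in size. The p-values describe genes that were selected on the same libraries, and exact permutation tests of 3 against 3 libraries cannot go below p = 0.1, which 6 of the 8 members reached in hippocampus. In hippocampus 4 of the 8 members were past it, against 42.6% of all listed genes. Of these, 2 were higher in BK KO mice, Cdh4 and Ncam2, against 20.7% of listed genes, and 2 were lower, Cdh24 and Igsf9b, against 21.9%. The BK KO values of 6 of the 8 members lay all above or all below the WT values, against 79.9% of listed genes. These shares were close to those of the whole table, whose genes and members were selected for the same contrast, and nothing particular to the adhesion genes is read from them. The median absolute log2 fold change was 0.52 for the members and 0.54 for all listed genes. With whole tissue, more or fewer cells of a type and more or less RNA per cell cannot be told apart.

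**Figure D1:**
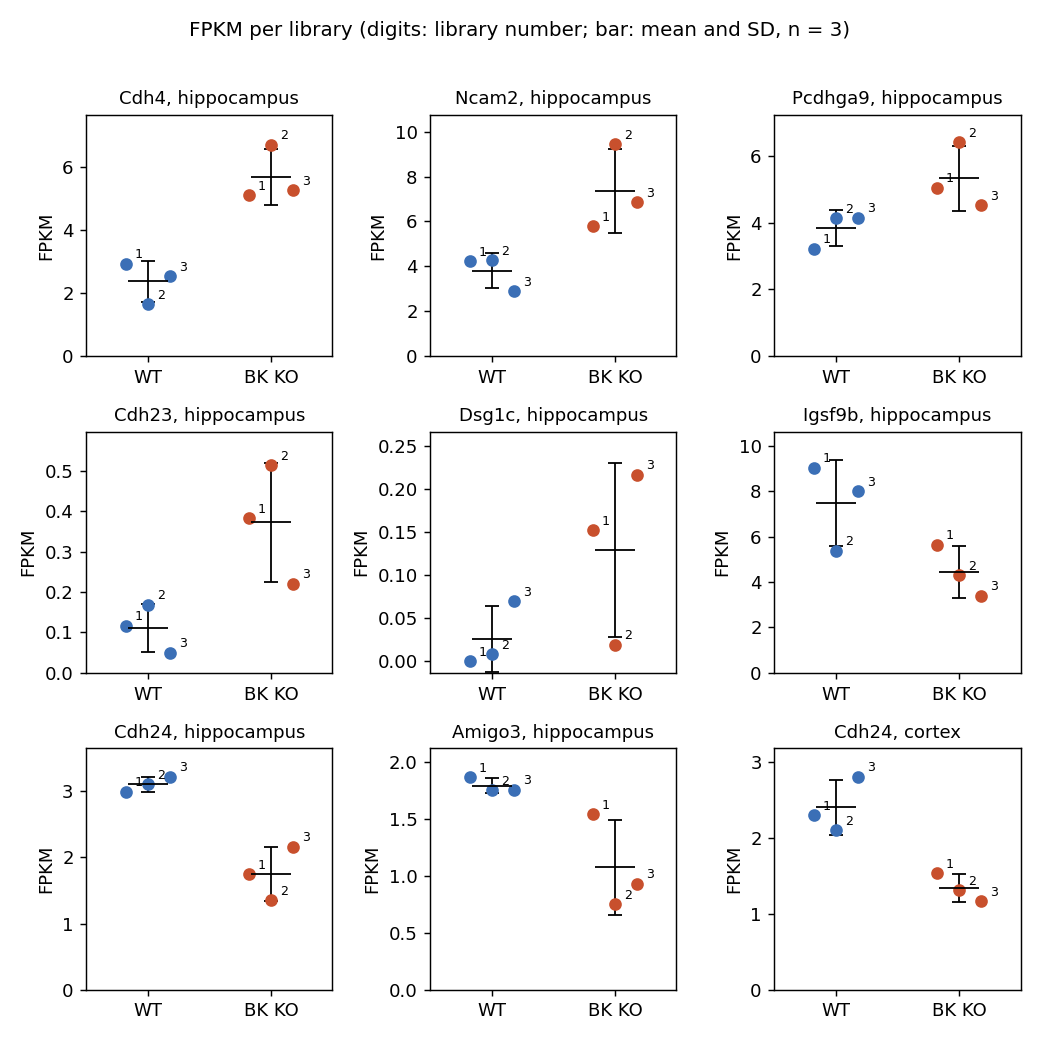
FPKM (vertical axis of each panel, scales differ) of the 8 adhesion genes in 3 WT and 3 BK KO hippocampus libraries and of Cdh24 in cortex. Points are libraries with their number, and bars give the mean and SD (n = 3). The groups overlap in the panels of Dsg1c and Igsf9b and are apart in the others.

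Cdh4 encodes R-cadherin, a classical cadherin of axon bundles and neural circuits. It had 2.92, 1.65 and 2.54 FPKM in WT hippocampus and 5.09, 6.69 and 5.25 FPKM in BK KO hippocampus. The lowest BK KO library was well above the highest WT library, and WT library 2 was the lowest of all. WT mice averaged 2.37 ± 0.654 FPKM (SD, n = 3) and BK KO mice 5.68 ± 0.882 FPKM (SD, n = 3). This gave a log2 fold change of 0.998 (standard error 0.18, limma adjusted p = 0.0150 over the table), the largest in size among the members with a pseudocount of 1, though with 0.01 those of Cdh23 (1.71) and Dsg1c (2.07) were larger than that of Cdh4 (1.29). It stayed past the threshold in 6 of 6 fits that left out 1 library, at 0.83 to 1.12. The authors' mean of normalized reads was 396 in WT and 941 in BK KO. Cdh4 spans 456943 bases of chromosome 2 of GRCm38, from 179442431 to 179899373 on the plus strand, with 16 exons in its longest coding transcript.

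Ncam2 encodes a homophilic adhesion molecule of the immunoglobulin superfamily, best known from the sorting of olfactory axons and also present at hippocampal synapses. Its FPKM in hippocampus were 4.24, 4.28 and 2.90 in WT mice and 5.79, 9.45 and 6.85 in BK KO mice. The groups did not overlap, and BK KO library 2 was far above the rest. The means were 3.81 ± 0.781 FPKM (SD, n = 3) and 7.36 ± 1.88 FPKM (SD, n = 3). On the log2(FPKM + 1) scale the change was 0.79 (standard error 0.20, limma adjusted p = 0.01997 over the table). Without BK KO library 2 it was 0.62 and still past the threshold, as it was in the other fits with 1 library left out. The authors' mean of normalized reads was 838 in WT and 1448 in BK KO.

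Cdh24, a type II cadherin that binds catenins, was the only member listed in both tissues. In hippocampus it had 2.996, 3.11 and 3.22 FPKM in WT mice and 1.75, 1.35 and 2.16 FPKM in BK KO mice. WT libraries lay close together and each was above every BK KO library, the lowest of which was library 2. The means were 3.11 ± 0.114 FPKM (SD, n = 3) and 1.75 ± 0.407 FPKM (SD, n = 3). BK KO minus WT was -0.59 on the log2 scale (standard error 0.13, limma adjusted p = 0.0176 over the table), just beyond the limit of 0.58. It was -0.57 without WT library 3 and -0.48 without BK KO library 2, and then no longer past the threshold. The authors' mean of normalized reads was 298 in WT and 162 in BK KO.

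In cortex Cdh24 had 2.30, 2.11 and 2.81 FPKM in WT mice and 1.54, 1.31 and 1.17 FPKM in BK KO mice. Here too the BK KO libraries all lay under the WT libraries, and the groups were apart in 80.6% of the genes listed in cortex. The means were 2.40 ± 0.364 FPKM (SD, n = 3) and 1.34 ± 0.187 FPKM (SD, n = 3). The log2 fold change of -0.54 (standard error 0.11, limma adjusted p = 0.0217 over the table) was inside the limit of 0.58, so 0 of 1 listed members were past the threshold in cortex, against 30.8% of listed genes, 10.9% higher and 20.0% lower. Without WT library 2 or BK KO library 1 it was -0.60 and past the threshold. The log2 fold change was -0.80 with a pseudocount of 0.1 and -0.84 with 0.01, both past the threshold. With median scaling over the selected genes, whose limit is given below, it was -0.21 and not past it. The authors' mean of normalized reads was 261 in WT and 141 in BK KO.

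Cdh24 allowed a direct comparison between the tissues. The effect of genotype in hippocampus minus that in cortex was -0.05 on the log2 scale (95% confidence interval -0.44 to 0.34, limma adjusted p = 0.998 over the 196 shared genes). It ran from -0.15 to 0.06 when 1 library was left out, so its sign was not settled. In WT mice its level was 0.28 higher in hippocampus than in cortex (95% confidence interval 0.00 to 0.55, limma adjusted p = 0.996), which fails the correction. In BK KO mice the difference was 0.23 (95% confidence interval -0.05 to 0.50, limma adjusted p = 0.904). The WT ranges of 2.996 to 3.22 FPKM in hippocampus and 2.11 to 2.81 FPKM in cortex did not overlap. The tables were normalized separately, and a gene listed in both had to change in both, so a like response of the tissues is not shown by these values. The position of Cdh24 is chromosome 14 of GRCm38, from 54631231 to 54641364 on the minus strand, and Kcnma1 lies on the same chromosome with 30.6 Mb between them.

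**Figure D2:**
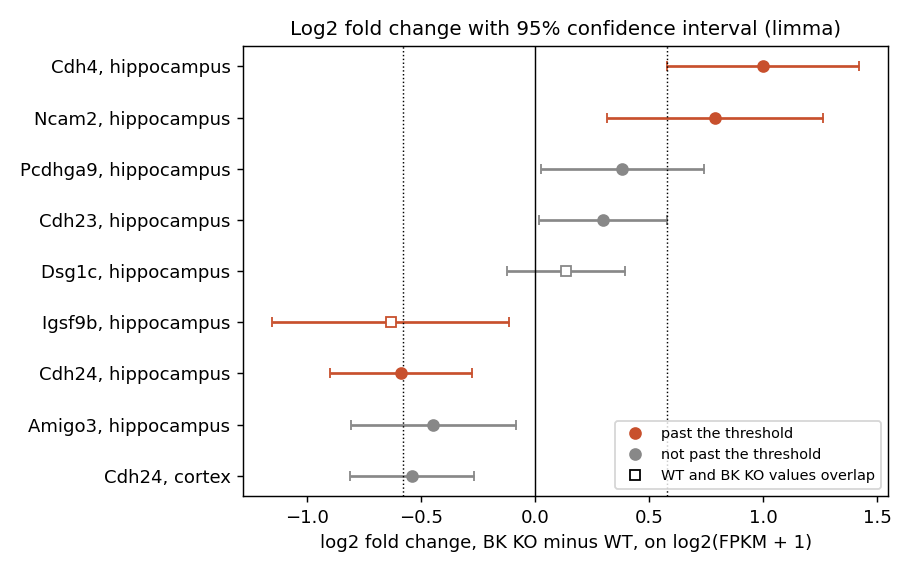
Log2 fold change (BK KO minus WT, horizontal axis, on log2(FPKM + 1)) of each adhesion gene with its 95% confidence interval from limma (3 libraries per group). Dotted lines mark 0.58 in either direction. Cdh4 and Ncam2 lie to the right of the limit, Igsf9b and hippocampal Cdh24 just beyond it to the left, and cortical Cdh24 at -0.54 just inside it.

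Igsf9b encodes an immunoglobulin superfamily protein found at inhibitory synapses on interneurons. It had 9.03, 5.38 and 8.01 FPKM in WT hippocampus and 5.64, 4.29 and 3.40 FPKM in BK KO hippocampus. WT library 2 was below BK KO library 1, so the groups overlap. The means were 7.47 ± 1.88 FPKM (SD, n = 3) and 4.44 ± 1.13 FPKM (SD, n = 3). On the log2 scale the change was -0.63 (standard error 0.22, limma adjusted p = 0.0390 over the table). This call rested on single libraries, since it held in 2 of 6 fits with 1 library left out and was lost without WT library 1 (-0.50), WT library 3 (-0.58), BK KO library 2 (-0.62) or BK KO library 3 (-0.49). The two-sided exact permutation test of the means gave p = 0.2. The authors' mean of normalized reads was 3058 in WT and 1754 in BK KO. Igsf9b lies on chromosome 9 of GRCm38 from 27299204 to 27357546 on the plus strand.

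Amigo3 encodes a leucine-rich repeat and immunoglobulin domain protein of the neuronal membrane, a family named for its part in neurite growth. Its FPKM were 1.86, 1.75 and 1.75 in WT hippocampus and 1.54, 0.748 and 0.930 in BK KO hippocampus. WT libraries were nearly equal and all above the BK KO libraries, of which library 1 came closest to WT. The means were 1.79 ± 0.0648 FPKM (SD, n = 3) and 1.07 ± 0.414 FPKM (SD, n = 3). With -0.45 on the log2 scale (standard error 0.15, limma adjusted p = 0.0386 over the table) the difference was inside the limit of 0.58. Without BK KO library 1 it was -0.60 and past the threshold. With a pseudocount of 0.1 the difference was -0.74 and with 0.01 it was -0.80, both past the threshold. With median scaling over the selected genes, whose limit is given below, it was -0.29 and not past it. The authors' mean of normalized reads was 96.3 in WT and 57.8 in BK KO. The gene has 1 exon, on the plus strand of chromosome 9 in GRCm38 between 108053159 and 108055701.

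Cdh23 encodes a long cadherin known from the tip links of inner ear hair cells, and its FPKM in hippocampus were low. Its FPKM were 0.117, 0.169 and 0.0496 in WT mice and 0.382, 0.513 and 0.220 in BK KO mice. Each BK KO library was above each WT library, though BK KO library 3 was not far from WT library 2. The authors' mean of normalized reads was 37.1 in WT and 128 in BK KO. The log2 fold change was 0.30 (standard error 0.12, limma adjusted p = 0.0534 over the table) with a pseudocount of 1, which understates the change of low genes, and 1.15 with a pseudocount of 0.1 and 1.71 with 0.01, both past the threshold. None of the 8 hair cell markers on the list used here was listed in either tissue, which does not tell whether they were expressed. Cdh23 lies on chromosome 10 of GRCm38 from 60302748 to 60696490 on the minus strand, with 71 exons in its longest coding transcript.

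RefSeq promoter entries (GRCm38.p6) matched 4 of the 8 members, and the start regions of these 4 are shown to set the member listed in both tissues (Cdh24) beside others that were available. Each line gives the 250 bases before the annotated start, 5′ to 3′ on the gene's own strand, with the GC box GGGCGG, searched on both strands, in capitals. The regions are chr14:54641365-54641614 (minus strand) for Cdh24, chr16:81200447-81200696 (plus strand) for Ncam2, chr9:108052909-108053158 (plus strand) for Amigo3 and chr10:60696491-60696740 (minus strand) for Cdh23.
Cdh24: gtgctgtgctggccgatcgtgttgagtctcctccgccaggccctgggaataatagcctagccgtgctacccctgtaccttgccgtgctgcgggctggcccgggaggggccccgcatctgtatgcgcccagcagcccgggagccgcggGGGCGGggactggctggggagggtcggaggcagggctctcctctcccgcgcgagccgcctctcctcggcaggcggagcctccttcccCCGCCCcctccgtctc
Ncam2: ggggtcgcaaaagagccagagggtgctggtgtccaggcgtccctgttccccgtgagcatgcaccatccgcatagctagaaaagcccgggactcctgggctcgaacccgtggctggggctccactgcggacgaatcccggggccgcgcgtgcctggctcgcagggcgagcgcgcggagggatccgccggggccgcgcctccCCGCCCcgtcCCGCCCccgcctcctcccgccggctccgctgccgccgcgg
Amigo3: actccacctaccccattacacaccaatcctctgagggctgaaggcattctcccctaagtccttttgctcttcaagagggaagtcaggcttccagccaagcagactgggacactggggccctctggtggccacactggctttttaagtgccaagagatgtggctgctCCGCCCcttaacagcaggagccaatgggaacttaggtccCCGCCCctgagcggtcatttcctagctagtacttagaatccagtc
Cdh23: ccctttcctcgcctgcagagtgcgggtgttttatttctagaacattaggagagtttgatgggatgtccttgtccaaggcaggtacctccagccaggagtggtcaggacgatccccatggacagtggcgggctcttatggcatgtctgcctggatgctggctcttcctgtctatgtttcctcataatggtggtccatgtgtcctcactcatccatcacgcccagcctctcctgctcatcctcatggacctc
The regions of Cdh24, Ncam2 and Amigo3 held 2 GC boxes each and that of Cdh23 held 0, where 32.7% of the 32851 promoters in the table held at least 1.

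These start regions differed in base composition. Guanine and cytosine made up 72.8% of the Cdh24 region and 75.2% of the Ncam2 region, against 55.2% for Amigo3, 54.4% for Cdh23 and a median of 52.4% over all promoters. The number of CG dinucleotides was 22 for Cdh24, 32 for Ncam2, 3 for Amigo3 and 5 for Cdh23, with a median of 6 over all promoters. The E box CANNTG occurred 1 time each in the Cdh24 and Cdh23 regions and was not found in the others, and 66.2% of promoters held it. Neither the TATA box TATAAA, held by 12.4% of promoters, nor the CRE core TGACG, held by 17.8%, occurred in any of these 4 regions on either strand. The Amigo3 region overlaps the genes Rnf123 and Gm20529, and the Cdh24 region overlaps Gm17606. Of these 4 regions, those of Cdh24, lower in BK KO mice, and Ncam2, higher in BK KO mice, had the largest GC shares. A match to a motif is a description of the letters in this window, and the lack of one says only that the letters are not there.

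The table of transcripts also showed which values could be shared between genes. For 6 of the 8 members, no 100-base window of the longest coding transcript occurred in a transcript of another gene, and no exon overlapped that of another gene. Pcdhga9 and Dsg1c were the exceptions, and their values are uncertain for this reason.

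Pcdhga9 is a member of the gamma protocadherin cluster, whose genes each join their own first exon to the same last exons. It had 3.22, 4.12 and 4.15 FPKM in WT hippocampus and 5.04, 6.41 and 4.51 FPKM in BK KO hippocampus. BK KO libraries were all above WT libraries, with a narrow gap between BK KO library 3 and WT library 3. The means were 3.83 ± 0.530 FPKM (SD, n = 3) and 5.32 ± 0.979 FPKM (SD, n = 3). Its log2 fold change was 0.38 (standard error 0.15, limma adjusted p = 0.0526 over the table), not past the threshold. The authors' mean of normalized reads was 162 in WT and 248 in BK KO. Of its 100-base windows, 44.4% occurred in 23 other genes, and 2116 bases of its exons (37.9%) were exons of other cluster genes on the same strand, so reads from those bases cannot be told apart. Pcdhga7, another gene of the cluster and the only other listed protocadherin in hippocampus, had 3.95, 3.94 and 5.03 FPKM in WT mice and 5.69, 6.22 and 5.99 FPKM in BK KO mice, with a log2 fold change of 0.40 (standard error 0.12). It shares those last exons, so it is not independent of Pcdhga9.

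Dsg1c encodes a desmoglein, a cadherin of desmosomes that is best known from skin. It was listed at 0, 0.00795 and 0.0700 FPKM in WT hippocampus and at 0.152, 0.0190 and 0.217 FPKM in BK KO hippocampus. BK KO library 2 was below WT library 3, so the groups overlap. The authors' mean of normalized reads was 3.51 in WT and 16.02 in BK KO, the lowest of the members. Its log2 fold change was 0.14 (standard error 0.11, limma adjusted p = 0.267), with a 95% confidence interval of -0.12 to 0.40, and the exact two-sided permutation test gave p = 0.2. Of its 100-base windows, 13.9% also occurred in Dsg1a or Dsg1b. None of the 16 keratinocyte markers on the list used here, among them Krt5 and Krt14, was listed in either tissue. An unlisted gene was not called between the genotypes, which does not tell whether it was expressed.

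**Figure D3:**
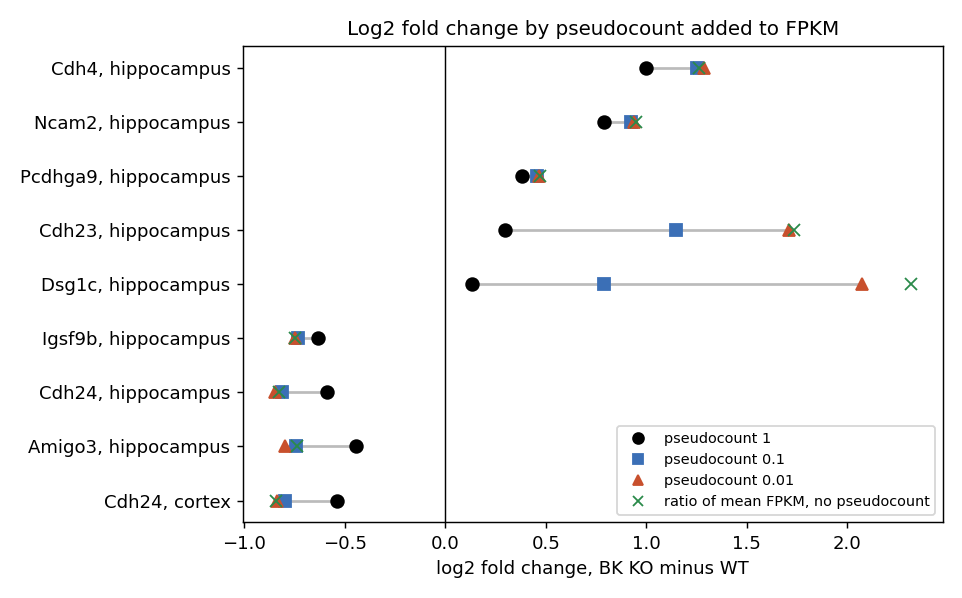
Log2 fold change (BK KO minus WT, horizontal axis) of each adhesion gene with 1, 0.1 or 0.01 added to FPKM, and as a ratio of mean FPKM with nothing added. The values of Cdh23 spread from 0.30 to 1.74 and those of Dsg1c from 0.14 to 2.32, while Ncam2 spans 0.79 to 0.95.

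The order of the levels differed between the genotypes. By mean FPKM the order in WT hippocampus was Igsf9b, Pcdhga9, Ncam2, Cdh24, Cdh4, Amigo3, Cdh23 and Dsg1c. Igsf9b at 7.47 FPKM stood apart from Pcdhga9 at 3.83 FPKM, whereas the ranges of Pcdhga9 and Ncam2, of Ncam2 and Cdh24, of Cdh4 and Amigo3, and of Cdh23 and Dsg1c overlapped. In BK KO hippocampus the order was Ncam2, Cdh4, Pcdhga9, Igsf9b, Cdh24, Amigo3, Cdh23 and Dsg1c. There the first 4 had overlapping neighbours, from 7.36 FPKM for Ncam2 to 4.44 FPKM for Igsf9b, and Igsf9b was apart from Cdh24 at 1.75 FPKM. Cdh24 and Amigo3 overlapped, and Cdh23 was apart from Dsg1c.

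In a group of 3 libraries, all but the middle one are extreme for a gene, so being extreme for most members is no trait of a library. BK KO hippocampus library 2 was the highest BK KO library for 4 members (Cdh4, Cdh23, Pcdhga9 and Ncam2) and the lowest for 3 (Cdh24, Dsg1c and Amigo3). WT library 1 was the highest for 3 members and the lowest for 3. BK KO library 2 also had the highest Wfs1, at 124 FPKM, against 75.9 and 80.1 FPKM in the other BK KO libraries. Without it, 2 members were past the threshold, Cdh4 and Ncam2, and the same 2 were past it without WT library 3. The count over all 652 listed genes also fell, from 278 to 235 without BK KO library 2 and to 242 without WT library 3. The part of BK KO library 2 in the other calls was not tested beyond these fits.

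**Figure D4:**
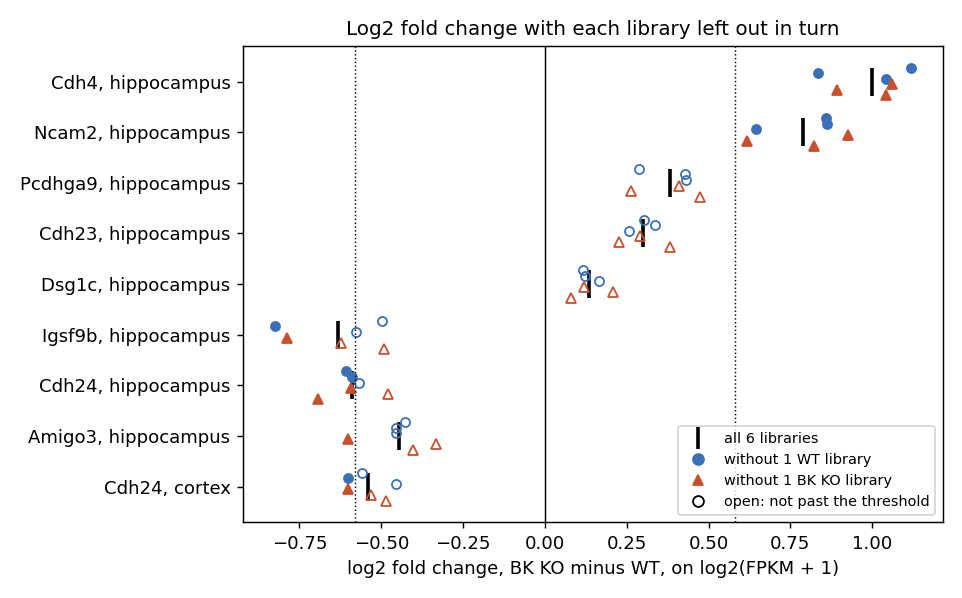
Log2 fold change (BK KO minus WT, horizontal axis, on log2(FPKM + 1)) of each adhesion gene with all 6 libraries of its tissue and with each library left out in turn. Filled symbols are past the threshold of 0.58 and p under 0.05. Of the 6 fits with a library left out, 6 are filled for Cdh4 and Ncam2, 4 for hippocampal Cdh24, 2 for Igsf9b and cortical Cdh24, 1 for Amigo3 and 0 for the others.

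Median scaling of the libraries over the listed genes changed which members were called. These genes were selected for a genotype difference, and 379 of 652 in hippocampus and 395 of 561 in cortex had a lower BK KO mean. Scaling on them raises BK KO values by construction, so it cannot tell whether a call is sound. The scaling moved the median log2 fold change of all hippocampus genes from -0.27 to -0.17 and that of all cortex genes from -0.33 to -0.08. Cdh4 (1.24) and Ncam2 (1.04) remained past the threshold and Pcdhga9 (0.63) came past it, while Cdh24 (-0.39) and Igsf9b (-0.39) did not reach it. The calls of all hippocampus genes were then 196 higher and 34 lower, in place of 135 and 143. Cortical Cdh24 was -0.21 on this scale. The sign of each member's change was the same with and without this scaling.

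The deposited annotation gave the term cell adhesion to 31 listed genes in hippocampus, all 8 members among them, and 16 of the 31 were past the threshold, against 42.6% of all listed genes. In cortex 30 listed genes carried it, 8 of them past the threshold, against 30.8%. Narrower lists of adhesion families held few other listed genes. Of 47 other cadherins on the list used here, 0 were listed, and of 68 other protocadherins 1 was, Pcdhga7. Of 57 other immunoglobulin adhesion genes 2 were listed, and 0 were past the threshold. Mcam, an endothelial and pericyte adhesion molecule, had 4.28, 5.99 and 6.05 FPKM in WT mice and 3.51, 3.19 and 3.39 FPKM in BK KO mice, which do not overlap. Icam1, the leukocyte-binding adhesion molecule of vessels, had 0.796, 1.13 and 0.747 FPKM in WT mice and 1.51, 1.70 and 2.26 FPKM in BK KO mice. Their log2 fold changes were -0.55 (standard error 0.14) for Mcam and 0.58 (standard error 0.14) for Icam1, the latter at 0.576 and so inside the limit.

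Of 52 leucine-rich repeat and synaptic adhesion genes, 1 was listed in hippocampus and it was past the threshold, against 42.6% of all listed genes. Nlgn1, the postsynaptic neuroligin of excitatory synapses, had 4.79, 5.86 and 4.25 FPKM in WT mice and 6.15, 10.8 and 8.40 FPKM in BK KO mice. All BK KO libraries were higher, library 2 most, with a log2 fold change of 0.64 (standard error 0.20). Of 28 intracellular partners of cadherins 1 was listed, Ppl, a plakin of desmosomes, where WT mice averaged 0.283 ± 0.185 FPKM (SD, n = 3) and BK KO mice 0.588 ± 0.0192 FPKM (SD, n = 3), with groups apart and not past the threshold. Of 27 integrins 1 was listed, Itga10, where WT mice averaged 0.833 ± 0.0801 FPKM (SD, n = 3) and BK KO mice 0.585 ± 0.122 FPKM (SD, n = 3), with groups apart and not past the threshold.

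In cortex, cadherins other than the members were listed beside Cdh24. Of the 47 other cadherins 4 were listed, 1 past the threshold in each direction, against 10.9% of all listed genes higher and 20.0% lower. Cdh13, T-cadherin, which is held to the membrane by a lipid anchor, had 14.2, 14.5 and 13.1 FPKM in WT mice and 18.7, 24.1 and 25.9 FPKM in BK KO mice. The groups were apart, BK KO the higher, with a log2 fold change of 0.66 (standard error 0.13, limma adjusted p = 0.0217). Celsr3, a receptor-like cadherin of axon tract formation, had 9.30, 12.6 and 13.9 FPKM in WT mice and 9.24, 7.05 and 5.92 FPKM in BK KO mice. The highest BK KO library was just below the lowest WT library, and the log2 fold change was -0.62 (standard error 0.20, limma adjusted p = 0.0408). Cdh22 (6.16 to 9.00 FPKM in the means) and Cdh19, named after its values were seen (1.08 to 1.79 FPKM), were not past the threshold, with groups apart. Whether these genes differ from the members between the tissues was not tested, because they were listed in 1 tissue only.

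Other adhesion lists in cortex gave 0 genes past the threshold, against 30.8% of all listed genes. Of the 68 other protocadherins 2 were listed, Pcdhgb4, which also carries the last exons of Pcdhga9, with WT mice at 1.12 ± 0.0834 FPKM (SD, n = 3) and BK KO mice at 1.75 ± 0.574 FPKM (SD, n = 3), and Pcdhb4 at 0.743 ± 0.112 FPKM (SD, n = 3) and 0.458 ± 0.0903 FPKM (SD, n = 3). Of the 57 other immunoglobulin adhesion genes 3 were listed, with mean FPKM of 2.63 in WT and 1.81 in BK KO for Nectin3, 1.04 and 1.87 for Sdk1 and 0.320 and 0.443 for Igsf10. Of the 27 integrins 5 were listed and all 5 had a log2 fold change below 0, where 395 of all 561 listed genes had a lower BK KO mean. Itgam, the integrin of microglia and other myeloid cells, was the most abundant of these, with WT mice at 5.49 ± 1.31 FPKM (SD, n = 3) and BK KO mice at 3.64 ± 0.929 FPKM (SD, n = 3), and its groups overlap. Itgb4 (1.74 and 1.06 FPKM) and Itga4 (1.36 and 0.971 FPKM) followed, and Itga10 and Itgal, named after their values were seen, had lower means (1.001 and 0.594 FPKM for Itga10, 0.472 and 0.251 FPKM for Itgal). Ush1g, a partner of cadherin 23 in hair cells and the only listed gene of 28 cadherin partners, had 0.140, 0.838 and 0.157 FPKM in WT mice and 0.495, 1.60 and 1.06 FPKM in BK KO mice, with overlap. None of the 52 leucine-rich repeat and synaptic genes was listed in cortex.

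The deposited annotation gave the term homophilic cell adhesion via plasma membrane adhesion molecules to 7 listed genes in hippocampus, 5 of them members (Cdh4, Cdh23, Cdh24, Dsg1c and Igsf9b). Of these 7, 3 had a log2 fold change above 0 and 4 below 0, and 3 were past the threshold, where the share of all listed genes was 42.6%. The others were Ceacam1 and Plxnb3, named after their values were seen, at 0.758 and 3.20 FPKM in WT and 0.478 and 2.22 FPKM in BK KO. In cortex 7 listed genes carried it, 3 above 0 and 4 below 0, with 3 past the threshold, where the share of all listed genes was 30.8%. Plxnb3 was in both tables and averaged 3.07 ± 0.414 FPKM (SD, n = 3) in the cortex of WT mice and 1.71 ± 0.493 FPKM (SD, n = 3) in that of BK KO mice.

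Markers of neuron classes moved with the members in hippocampus. Of 9 inhibitory neuron markers 2 were listed, both past the threshold and higher, against 20.7% of all listed genes. Their summed FPKM were 18.7, 19.3 and 21.4 in WT mice and 47.0, 51.1 and 39.0 in BK KO mice. Gad2, the enzyme that makes GABA, was the more abundant, with WT mice at 14.7 ± 1.79 FPKM (SD, n = 3) and BK KO mice at 33.8 ± 3.84 FPKM (SD, n = 3). The excitatory marker Wfs1 was past the threshold and higher, with WT mice at 38.8 ± 12.2 FPKM (SD, n = 3) and BK KO mice at 93.3 ± 26.7 FPKM (SD, n = 3). Of 9 endothelial and mural markers 2 were listed, neither past the threshold and both with a log2 fold change below 0. Among all listed genes, 379 of 652 had a lower BK KO mean. The summed FPKM of these 2 markers were 18.5, 19.3 and 16.01 in WT mice and 11.8, 14.0 and 8.96 in BK KO mice, mostly from Rgs5. Of 8 oligodendrocyte markers 1 was listed, Olig2, at 12.3, 15.7 and 17.5 FPKM in WT mice and 8.20, 9.59 and 12.2 FPKM in BK KO mice. Of the astrocyte, microglia, choroid plexus and meningeal markers 0 were listed in hippocampus, which does not tell whether they were expressed. The part of these cell types in the change of any member was not tested.

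In cortex, markers of skeletal muscle moved with genotype beside Cdh24. Of 30 muscle markers 18 were listed, all with a log2 fold change below 0, where 395 of all 561 listed genes had a lower BK KO mean. Of the 18, 9 were past the threshold and lower, against 20.0% of all listed genes. The summed FPKM of the 18 were 96.5, 38.1 and 32.0 in WT mice and 12.5, 10.6 and 9.97 in BK KO mice. Acta1 was the most abundant, and WT library 1 had the highest sum. WT libraries 2 and 3 also had higher sums than each BK KO library. The log2 fold change of Cdh24 in cortex was -0.56 (standard error 0.13) without WT library 1. In hippocampus 2 of the 30 were listed, Xirp2 and Cacna1s, with summed FPKM from 0.0869 to 0.330. Of the other markers, Gfap of astrocytes (38.7 ± 14.1 FPKM in WT and 75.2 ± 21.6 FPKM in BK KO, SD, n = 3), Wfs1 (37.1 and 60.1 FPKM in the means) and Gad2 (14.3 and 24.3 FPKM) were past the threshold and higher in cortex, and Tek and Slc22a6 had a log2 fold change below 0 and were not past it. Their part in the Cdh24 value was not tested.

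Other listed genes followed the members closely over the 6 hippocampus libraries. Likeness was Pearson's r on log2(FPKM + 1) among listed genes with a mean of at least 1 FPKM, and it includes the difference between genotypes that put these genes in the table. For Cdh4 the most alike were Scg2, a secretory granule protein (r = 0.983), and Endou (r = 0.978), and for Ncam2 they were Nos1, the neuronal nitric oxide synthase (r = 0.994), and Smoc1 (r = 0.977). Pcdhga9 was most like Kcns2, a potassium channel subunit (r = 0.970), and Spint1 (r = 0.944). Cdh23 was nearest to Cd33 (r = 0.985) and Serpinf1 (r = 0.983), and Dsg1c to Plppr1 (r = 0.956) and Cry1, a clock repressor (r = 0.948). Among the lower members, Igsf9b was most like Slc25a37, a mitochondrial iron carrier (r = 0.990), and Stx1a, a presynaptic SNARE protein (r = 0.980), Amigo3 like Cited4 (r = 0.991) and 2010111I01Rik (r = 0.990), and Cdh24 like Nrbp2 (r = 0.986) and Stk10 (r = 0.986). In cortex Cdh24 was most like Exd2 (r = 0.995) and Serac1 (r = 0.992). Between 4 and 59 hippocampus genes had r over 0.9 with a member, the fewest with Dsg1c.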

How the data were processed

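RNA from hippocampus and cortex of 3 WT and 3 BK KO mice was sequenced with a poly-A kit that does not mark strand. The members and gene lists were chosen with earlier results of these data known. The value per library was deposited by the authors without a named unit and is taken as FPKM from its digits and its relation to transcript length. The authors' base mean is a signal, the average over a group of reads after size-factor normalization. The submitters' processing notes name DESeq 1.10.1, DESeq2 and the build mm9, and the aligner and counter are not given in the sources used here. The authors' columns of fold change, log2 fold change, p-value and adjusted p-value were not used. Depth is unknown, since the FPKM tables hold only called genes.

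Each table was fitted with limma 3.58.1 (R 4.3.3; lmFit, eBayes) on log2(FPKM + 1), BK KO against WT, with Benjamini-Hochberg adjustment over the table and no filter. The interaction of genotype and tissue was fitted over the 196 shared genes. The fit was tested on simulated data. Exact permutation tests of 3 against 3 cannot give p under 0.1. Python 3.11.15, scipy 1.17.1, pandas 2.3.3, numpy 2.4.6 and matplotlib 3.10.9 did the rest. Positions and windows come by symbol from GENCODE M21 (GRCm38, not the build of the notes), start regions from RefSeq. Named genes are Kcnma1, the members, the 3 most abundant listed genes of each adhesion list, the most abundant of each marker list and the 2 genes most like each member. Genes named outside this rule were chosen after their values were seen. Alternatives were other pseudocounts, a minimum mean FPKM of 1, limma's trend, a replicate block, adjusted p-values, a log2 limit of 1, median scaling and leaving out each library.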

Additional observations from a re-analysis of the deposited data

How the results depend on the processing

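In hippocampus 278 listed genes were past the threshold. This became 548 with a pseudocount of 0.1, 537 with 0.01 and 35 with a log2 limit of 1, and 4 members became 6, 6 and 0. In cortex 173 became 408, 421 and 25, and 0 members became 1, 1 and 0. Leaving out each library in turn gave 2 to 5 members in hippocampus, beside 230 to 282 of all 652 genes, and 0 to 1 in cortex, beside 135 to 180 of all 561 genes. Median scaling turned the cortex calls from 61 higher and 112 lower into 129 and 15. Its factors came from the listed genes, of which 395 of 561 had a lower mean in BK KO cortex. The scaling therefore raises BK KO values by construction. The same 4 hippocampus members were past the threshold with a mean FPKM of at least 1 (of 6 members tested, and 268 of 443 genes), with limma's trend (281 of 652 genes) and with adjusted p-values (262 of 652 genes). No member changed sign under any alternative run.

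The replicate numbers do not join a WT to a BK KO mouse, and deviations of libraries that share a number correlated at 0.02, 0.08 and -0.07 in hippocampus and -0.24, 0.12 and -0.22 in cortex. With a replicate block 272 hippocampus and 165 cortex genes and 4 and 0 members were past the threshold. In the interaction fit the block was another one, joining hippocampus and cortex libraries of the same number within a genotype. Such pairs correlated at 0.51, 0.66 and 0.55 in BK KO mice and at -0.000417, 0.49 and 0.02 in WT mice. The pairing is thus not shown for WT libraries 1 and 3. With this block the interaction for Cdh24 was -0.05 and the WT tissue difference 0.28. None of the alternatives run (a pseudocount of 0.1, this block, each library left out) brought either to an adjusted p under 0.05.

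Groups of 3 limit every test, and only genes called by the authors were available, so the p-values and the estimate of spread describe selected genes. The FPKM of Dsg1c rest on few reads. The fold changes of Cdh23 and Dsg1c, the members with the lowest FPKM, depend on the pseudocount. Those of Amigo3 and cortical Cdh24 also depend on it, and both came past the threshold with a pseudocount of 0.1 or 0.01.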
